A study of Mus musculus with 2 samples.

Results

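The replication-dependent histone genes encode the linker histone H1 and the core histones H2A, H2B, H3 and H4 that package newly copied DNA. They were taken here as the protein-coding genes of the mouse GENCODE annotation whose symbol begins with Hist1h, Hist2h, Hist3h or Hist4, which gave 67 of 21938 protein-coding genes. The Hist1 cluster on chromosome 13 held 54 of them, Hist2 on chromosome 3 held 10, Hist3 on chromosome 11 held 2 and Hist4 on chromosome 6 held 1. By class there were 6 H1, 18 H2A, 18 H2B, 12 H3 and 13 H4 genes. Sites where DNase I cuts chromatin readily were mapped by DNase-seq in a calf muscle, the gastrocnemius, from female B6CASTF1/J mice aged 14 days, which are F1 hybrids with 1 set of CAST alleles. There was 1 group of 2 biological replicates and no treated or control group. Each biosample is labelled as 3x females under a shared donor record, so a library may pool animals. Instruments are named for replicate 2 alone, so effects of sequencing and of the replicate cannot be told apart.

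Most of these genes are switched on together as a cell enters S phase, from promoters that often lie back to back between an H2A and an H2B gene. The coactivator NPAT gathers at the clusters in a nuclear body, and class-specific elements bind factors such as HINFP at H4 genes, OCT-1 at H2B genes and NF-Y at CCAAT boxes. Their messages end in a stem-loop, bound by SLBP, in place of a poly(A) tail. In muscle the fibres have left the cell cycle, while satellite, endothelial and connective tissue cells can still divide, and a tissue library mixes them all.

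DNase-seq counts cuts, and the authors' peak lists give a signal for each peak. For each library the shorter list is called strict below and the longer one permissive. A gene was counted as open where each library had a strict peak with its midpoint within 1000 bp of an annotated transcription start site (TSS). The signal of a gene in a library was that of its strongest such peak. Replicate 1 had 87558 strict peaks and replicate 2 had 79562. The number of reads behind them is unknown. Deposited signals were whole multiples of a fixed step, and the median open histone gene stood at 403 steps in replicate 1 and 394 in replicate 2. All 10 muscle marker genes were open, among them Ckm at 13.1 in replicate 1 and 8.99 in replicate 2. The satellite cell list was open at 4 of 6 genes, the endothelial list at 5 of 6, the fibroblast list at 5 of 6, the Schwann cell list at 4 of 6, the erythroid list at 2 of 6 and the macrophage list at 0 of 6. Over all protein-coding genes 63.7% were open, close to the satellite and Schwann cell shares, so these counts do not measure the cells present. What each cell type adds to the histone promoters was not tested, and in bulk tissue few open cells and weakly open cells cannot be told apart.

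The sequences that tell the classes apart are shown first, because the results on position and footprints refer back to them. They come from the RefSeq promoter windows of GRCm38.p6 (250 bp before to 50 bp after the start), which held 62 of the 67 genes. Hist1h3f, Hist1h2bc, Hist1h3a, Hist2h2be and Hist2h4 are named only. All H4 genes with a window are given in the first set, as 30 bases around the HINFP core GGTCCG, which is in capitals. Hist1h4a has no such core, and its line gives positions -58 to -29 from the start.
Hist4h4 (chr6:136804446-136804475, minus strand): tgttttcaatcaGGTCCGctcccaggaaat
Hist1h4j (chr13:21735004-21735033, plus strand): ggttctcatttcGGTCCGcccgctacagta
Hist1h4k (chr13:21750568-21750597, minus strand): ggttctcatttcGGTCCGcccgccgcagta
Hist1h4m (chr13:21811687-21811716, plus strand): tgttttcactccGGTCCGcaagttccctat
Hist1h4n (chr13:21832226-21832255, minus strand): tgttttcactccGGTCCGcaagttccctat
Hist1h4i (chr13:22041391-22041420, minus strand): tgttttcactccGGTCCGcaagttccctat
Hist1h4h (chr13:23531027-23531056, plus strand): agtcttcaatcaGGTCCGaaaacactgcat
Hist1h4f (chr13:23551697-23551726, minus strand): agtcctctaaaaGGTCCGcattcgccatat
Hist1h4d (chr13:23581509-23581538, plus strand): ggttttcaaacaGGTCCGcattggtattat
Hist1h4c (chr13:23698487-23698516, minus strand): agttttcaaccaGGTCCGcagaaggcctat
Hist1h4b (chr13:23756931-23756960, plus strand): agttctcaaccaGGTCCGataagagcctat
Hist1h4a (chr13:23761278-23761307, minus strand): gccaggtcttattggcggggtttatgacgt
The core was found in 11 of 12 H4 windows, 91.7%, against 10.5% of the 21263 windows of all protein-coding genes, where it was sought on both strands. In 6 of the 11 its first base stood at position -46 or -47 from the RefSeq start. Among histone windows, the core overlapped a CCAAT box at 1 place and a GC box at 2, and no other pair of the motifs searched overlapped. The printed stretches of Hist1h4i, Hist1h4m and Hist1h4n are the same 30 bases.

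The second set gives the 6 H1 promoters up to position -20 from the start, with the H1 box AAACACA, the CCAAT box (CCAAT, or ATTGG on the other strand) and the TATA box TATAAA in capitals.
Hist1h1b (chr13:21780645-21780750, minus strand): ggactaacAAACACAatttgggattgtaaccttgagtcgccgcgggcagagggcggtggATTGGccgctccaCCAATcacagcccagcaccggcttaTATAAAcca
Hist1h1d (chr13:23554907-23555012, plus strand): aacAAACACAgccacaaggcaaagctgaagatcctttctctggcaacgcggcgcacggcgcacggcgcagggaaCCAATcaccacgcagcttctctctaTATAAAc
Hist1h1e (chr13:23622578-23622683, minus strand): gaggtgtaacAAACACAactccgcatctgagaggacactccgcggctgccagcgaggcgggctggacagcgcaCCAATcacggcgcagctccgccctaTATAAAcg
Hist1h1t (chr13:23695686-23695791, plus strand): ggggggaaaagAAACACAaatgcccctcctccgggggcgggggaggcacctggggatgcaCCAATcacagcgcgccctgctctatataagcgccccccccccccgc
Hist1h1c (chr13:23738682-23738787, plus strand): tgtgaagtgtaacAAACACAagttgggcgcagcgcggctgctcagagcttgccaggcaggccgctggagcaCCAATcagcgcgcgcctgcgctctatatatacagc
Hist1h1a (chr13:23763543-23763648, plus strand): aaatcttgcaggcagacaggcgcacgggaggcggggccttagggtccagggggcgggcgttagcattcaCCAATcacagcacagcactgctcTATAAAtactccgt
The H1 box stood in 5 of the 6 H1 windows, 83.3%, against 6.15% of all windows, and Hist1h1a was the H1 gene without it. All 6 H1 windows held a CCAAT box. In the printed stretches of Hist1h1t and Hist1h1c no exact TATAAA was found.

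The third set gives the 248 bases upstream of one gene in each of 2 divergent H2A and H2B pairs, written on the plus strand. The line of Hist1h2bj lies between its start and that of Hist1h2ag, which were open, and the line of Hist1h2aa lies between its start and that of Hist1h2ba, which were not. Where present, capitals mark CCAAT boxes, TATA boxes, the octamer ATTTGCAT (ATGCAAAT on the other strand) and the E2F site TTTCGCGC (GCGCGAAA on the other strand).
Hist1h2bj (chr13:22042950-22043197, plus strand): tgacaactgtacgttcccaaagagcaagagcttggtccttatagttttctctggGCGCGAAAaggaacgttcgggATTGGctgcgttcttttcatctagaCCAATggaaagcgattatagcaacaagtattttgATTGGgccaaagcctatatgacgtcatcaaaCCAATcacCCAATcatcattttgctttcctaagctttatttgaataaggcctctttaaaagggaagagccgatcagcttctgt
Hist1h2aa (chr13:23934189-23934436, plus strand): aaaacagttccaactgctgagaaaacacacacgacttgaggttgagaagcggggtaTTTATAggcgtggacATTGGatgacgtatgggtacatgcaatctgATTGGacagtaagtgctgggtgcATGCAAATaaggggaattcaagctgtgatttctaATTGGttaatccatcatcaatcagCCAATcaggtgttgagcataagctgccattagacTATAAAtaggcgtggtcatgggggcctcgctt
The octamer occurred in 38.9% of H2A and 41.2% of H2B windows and in no H1, H3 or H4 window, against 1.66% of all windows. The E2F site occurred in 27.8% of H2A and 23.5% of H2B windows, against 0.451% of all windows. The 4 H2B matches lay at -195 to -181 bp and were the same places as matches of the H2A partners. Within 150 bp before the start, the H2A share was again 27.8% and the H2B share was 0 of 17. Divergent neighbours share most of their window, so these shares count many matches from both sides.

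Across the classes the histone windows differed from promoters at large in composition as well as in these elements. A CCAAT box stood in 54 of 63 windows (one gene has a pair of windows), 85.7%, against 38.2% of all windows, and in 3 of 12 H4 windows. A TATA box stood in 55.6% of histone windows, against 12.6% of all. The GC box GGGCGG stood in 38.1%, against 46.2% of all, but in 9 of the 12 H4 windows. The median GC content of the histone windows was 45.3%, against 56.3% over all windows. Members of a class descend from copies of each other, so the windows are not independent, and a match is a description of the letters only. No histone window held the E2F site TTTGGCGC or the tRNA B box GTTCGANNC, which 0.635% and 0.926% of all windows held. The E-box CAGCTG was in 11.1% of histone windows, against 15.6% of all, and the CRE TGACGTCA in 6.35%, against 2.23%. The CTCF core AGNNGGCGC was in 4.76%, all of them H4 genes, against 9.18% of all.

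**Figure D1:**
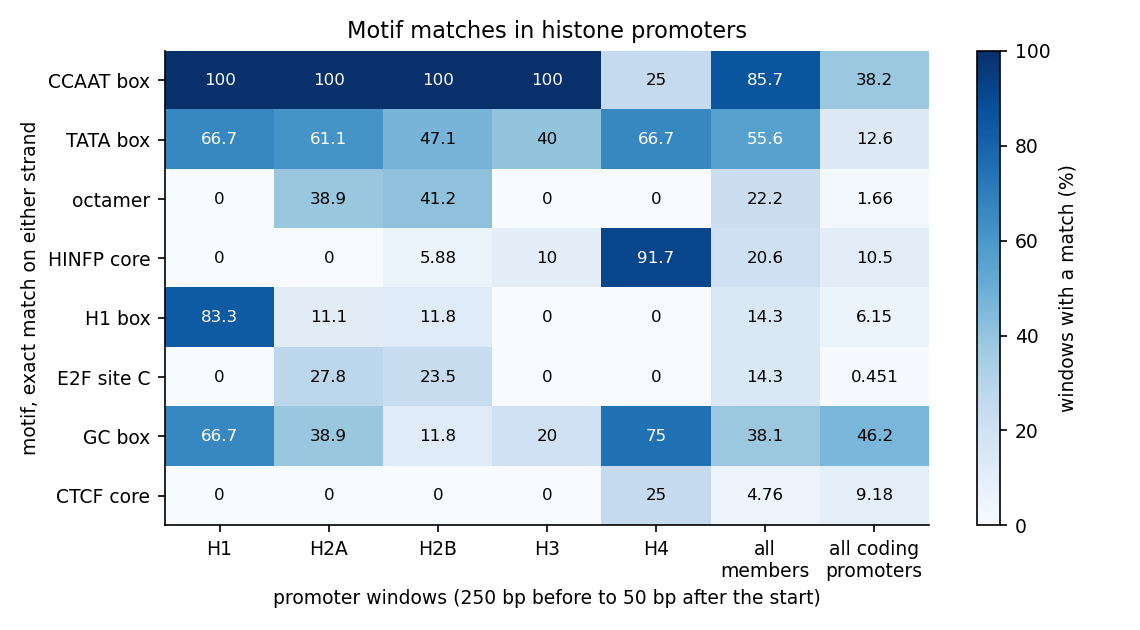
Share of RefSeq promoter windows (colour and number, percent) with an exact match on either strand, for 8 motifs (rows) in the windows of each histone class, of all members and of all protein-coding genes (columns). The HINFP core stands out in H4 windows at 91.7%, the H1 box in H1 windows at 83.3% and the octamer in H2A and H2B windows, while CCAAT boxes fill every class but H4.

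Of the 67 histone genes 51, or 76.1%, were open in both libraries, against 63.7% of all protein-coding genes. Most open histone promoters had a signal below that of a typical open gene. Their median signal was 2.85 in replicate 1 and 2.62 in replicate 2, against 7.96 and 7.19 over all open genes in the same libraries. The strongest peak was taken over every annotated start of a gene, so genes with more starts were searched more widely. With the start of the gene record only, 51 histone genes were open, 76.1%, against 59.0% of all genes. No median was taken under that setting. Of the 51, 7 lay above the median of all open genes by mean signal, namely Hist1h4a, Hist1h3a, Hist1h4c, Hist2h2aa2, Hist1h4h, Hist1h1c and Hist1h1e. In the permissive lists 56 histone genes had a promoter peak in both libraries, against 68.3% of all genes. With 1 group and no contrast, these counts are descriptions without a test, and genes are not replicates. Neighbours that share a peak add to the count of open genes. When each peak was given only to the gene with the nearest TSS, 46 of the 67 were open, 68.7%, against 60.1% of all genes, and among the stronger 50% of peaks 39 were open, 58.2%, against 56.6%.

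**Figure D2:**
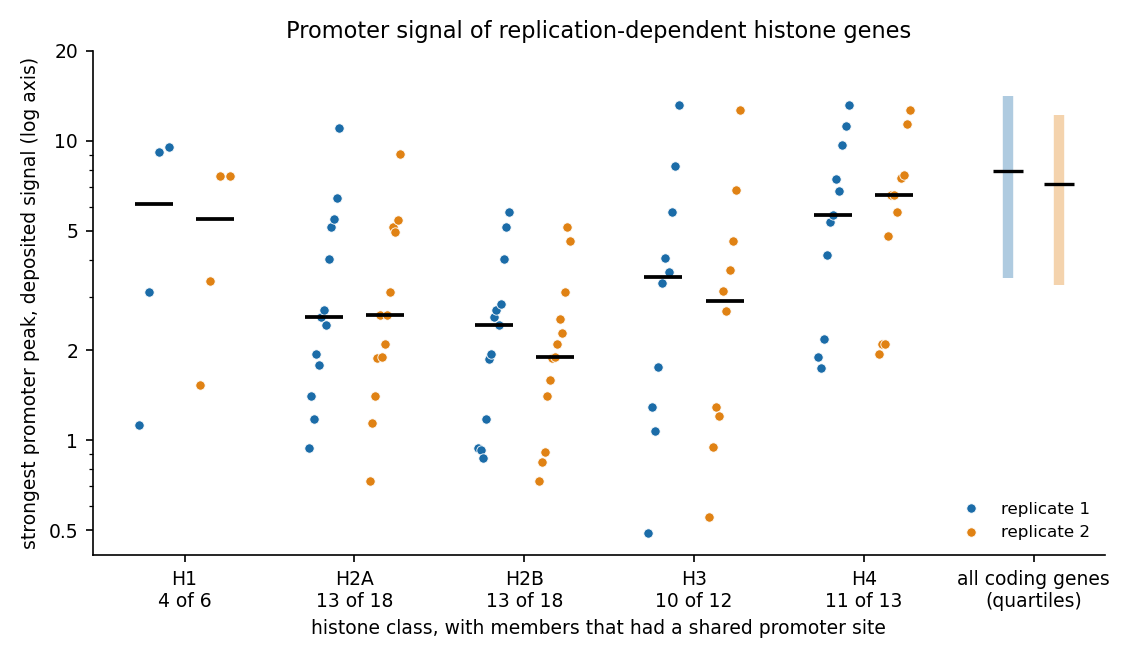
Deposited signal of the strongest strict promoter peak (log axis) for each open histone gene, by class and replicate, with black bars at the medians, beside the median and quartiles of all open protein-coding genes. H4 genes centre on 5.65 in replicate 1 and 6.59 in replicate 2, H2A and H2B genes lie lower. Most H2A, H2B, H3 and H4 points lie under the median of all genes, while 2 of the 4 open H1 genes lie above it.

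Linker histone genes were open at 4 of 6. Hist1h1c, a widely expressed H1 form, reached 9.55 in replicate 1 and 7.61 in replicate 2, but that peak lay at +963 bp, past the start. The site over its start had 7.85 in replicate 1 and 5.49 in replicate 2. Hist1h1e, another somatic form, had 9.15 and 7.63 in replicates 1 and 2, from a site centred at +7 bp. Hist1h1a had 3.13 and 3.39, and Hist1h1b had 1.12 and 1.53, in the same order. Hist1h1c and Hist1h1e were thus well above Hist1h1a and Hist1h1b in both libraries. Hist1h1t encodes the testis form of H1, and its strict peak was found in replicate 1 alone, at 0.622. In replicate 2 it had a permissive peak at 0.459.

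Hist1h1d had no peak in any list within 1000 bp of its GENCODE start, and neither library listed a base there with a false discovery rate below 0.05. Its RefSeq start lies 1770 bp farther downstream, and a shared site at chr13:23554901-23555260 covered that start with 1.41 in replicate 1 and 1.75 in replicate 2. That site holds the printed H1 box, CCAAT box and TATA box of Hist1h1d. With RefSeq starts for the histone genes, an alternative chosen after seeing the data, 52 of the 67 were open, 77.6%, against 63.8% of all genes.

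H2A genes were open at 13 of 18, with a median of 2.59 in replicate 1 and 2.62 in replicate 2. Hist2h2aa2 was the highest, at 11.0 and 9.04 in replicates 1 and 2, although only 42.1% of the 36-base positions around it are unique. Next came Hist3h2a at 6.46 and 5.43, from a site at +326 bp, and Hist2h2aa1 at 5.48 and 4.95, with 43.1% unique positions. The lowest open H2A genes were Hist1h2af at 1.40 in replicate 1 and 1.14 in replicate 2, and Hist1h2ae at 0.940 and 0.731. Elsewhere in Hist2, Hist2h2ab had 1.79 in replicate 1 and 2.62 in replicate 2, and Hist2h2ac had 2.42 and 2.62.

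H2B genes were open at 13 of 18 too and had the lowest class median, 2.42 in replicate 1 and 1.90 in replicate 2. Hist2h2bb led at 5.79 and 4.62, a site at -151 bp that also lies within 1000 bp of the H3 gene Hist2h3b. Hist1h2bf had 5.14 in replicate 1 and 5.17 in replicate 2, from the site it shares with Hist1h2ad. Hist1h2bp had 4.02 and 3.12, shared with Hist1h2an. At the low end Hist1h2bm had 0.926 in replicate 1 and 0.844 in replicate 2, and Hist1h2bg had 0.940 and 0.731. Hist2h2be stood at 2.42 and 2.55. No H2B gene reached the median of all open genes.

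H3 genes were open at 10 of 12, with medians of 3.50 in replicate 1 and 2.92 in replicate 2. Hist1h3a had the top signal, 13.2 in replicate 1 and 12.7 in replicate 2, from the strong site that lies nearer to Hist1h4a. The site next to its own start, at +45 bp, had only 0.770 and 0.957. Hist1h3e, at 8.22 in replicate 1 and 6.87 in replicate 2, was the highest H3 gene with a strong site at its own start. Hist2h3b followed with 5.79 and 4.62, of which its own site at +27 bp had 2.73 and 2.69. The lowest were Hist1h3f at 1.29 in replicate 1 and 0.951 in replicate 2, and Hist1h3i at 0.488 and 0.552. Hist2h3c2 had 1.07 and 1.29, with 20.5% of the 36-base positions around it unique.

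H4 genes were open at 11 of 13 and had the highest class median in replicate 2, 6.59, with 5.65 in replicate 1, where the 4 open H1 genes had 6.14. These class medians use the strongest peak within 1000 bp. With the site nearest each start instead, H4 had 5.65 in replicate 1 and 6.59 in replicate 2. By the same measure H1 had 5.49 and 4.44, H2A 2.42 and 2.09, H3 2.24 and 1.99, and H2B 1.81 and 1.71. H4 was then highest in both libraries, and H3 fell below H2A. Hist1h4a had 13.2 in replicate 1 and 12.7 in replicate 2. Hist1h4c followed with 11.2 and 11.4, and Hist1h4h with 9.69 and 7.68. Outside Hist1, Hist4h4 had 6.80 in replicate 1 and 7.50 in replicate 2, and Hist2h4 had 5.34 and 6.59. The weakest open H4 genes were Hist1h4j, at 1.90 and 1.93, and Hist1h4b, at 1.75 and 2.09. After centring the log2 ratio of replicate 2 over replicate 1 on all shared sites, 9 of the 11 H4 genes were above 0, with a median of 0.17. Over all open histone genes 27 of 51 were above 0, and over all open protein-coding genes 6289 of 13985, with a median of -0.02. With 1 library on each side this was not tested.

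The 16 genes that were not open fell into several kinds. Hist1h2ak and Hist1h2bn, a divergent pair, shared a strict peak at 0.721 in replicate 1 and a permissive one at 0.598 in replicate 2. Hist1h2ab had permissive peaks of 0.728 in replicate 1 and 0.811 in replicate 2, and Hist1h4m of 0.424 and 0.279. Permissive peaks in replicate 1 alone were found at Hist3h2ba, at 0.707, and at Hist1h3d, at 0.473. The other 9 had no peak in any list, and neither library listed a base with a false discovery rate under 0.05 within 1000 bp of their starts.

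Near-identical copies surround 6 of those 9, and short reads that match several places cannot be placed. Uniqueness was measured as the share of start positions within 1000 bp of the TSS whose 36-base sequence occurs once in the reference, on either strand. Hist1h2bq, Hist1h2ao, Hist1h2ap and Hist1h2br had 0%, Hist1h4n had 5.00% and Hist2h3c1 had 21.3%, and Hist1h4m, with a weak permissive peak, had 4.75%. The median over all 67 was 77.2%. The read length and the handling of multiply placed reads are unknown, so closed chromatin and unplaced reads cannot be told apart at these genes. Among the 57 histone genes with at least 50% unique positions, 48 were open, against 63.7% of all genes, to which no such cut was applied.

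For the other 3 genes without any peak the sequence was nearly unique. Hist1h1d, described above, had 99.5% unique positions. Hist1h2ba and Hist1h2aa, which encode the testis H2B and H2A forms, had 90.5% each. Their shared promoter, the last printed sequence, holds CCAAT boxes, TATA boxes and an octamer, and no E2F site of the printed kind. That E2F site stood in 0 of the 16 windows of genes that were not open and in 9 of the 47 windows of open genes, at 5 distinct places. It occurred in H2A and H2B windows only. The windows of genes that were not open include other classes and the near-identical copies above, so these counts do not link the site with openness.

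**Figure D3:**
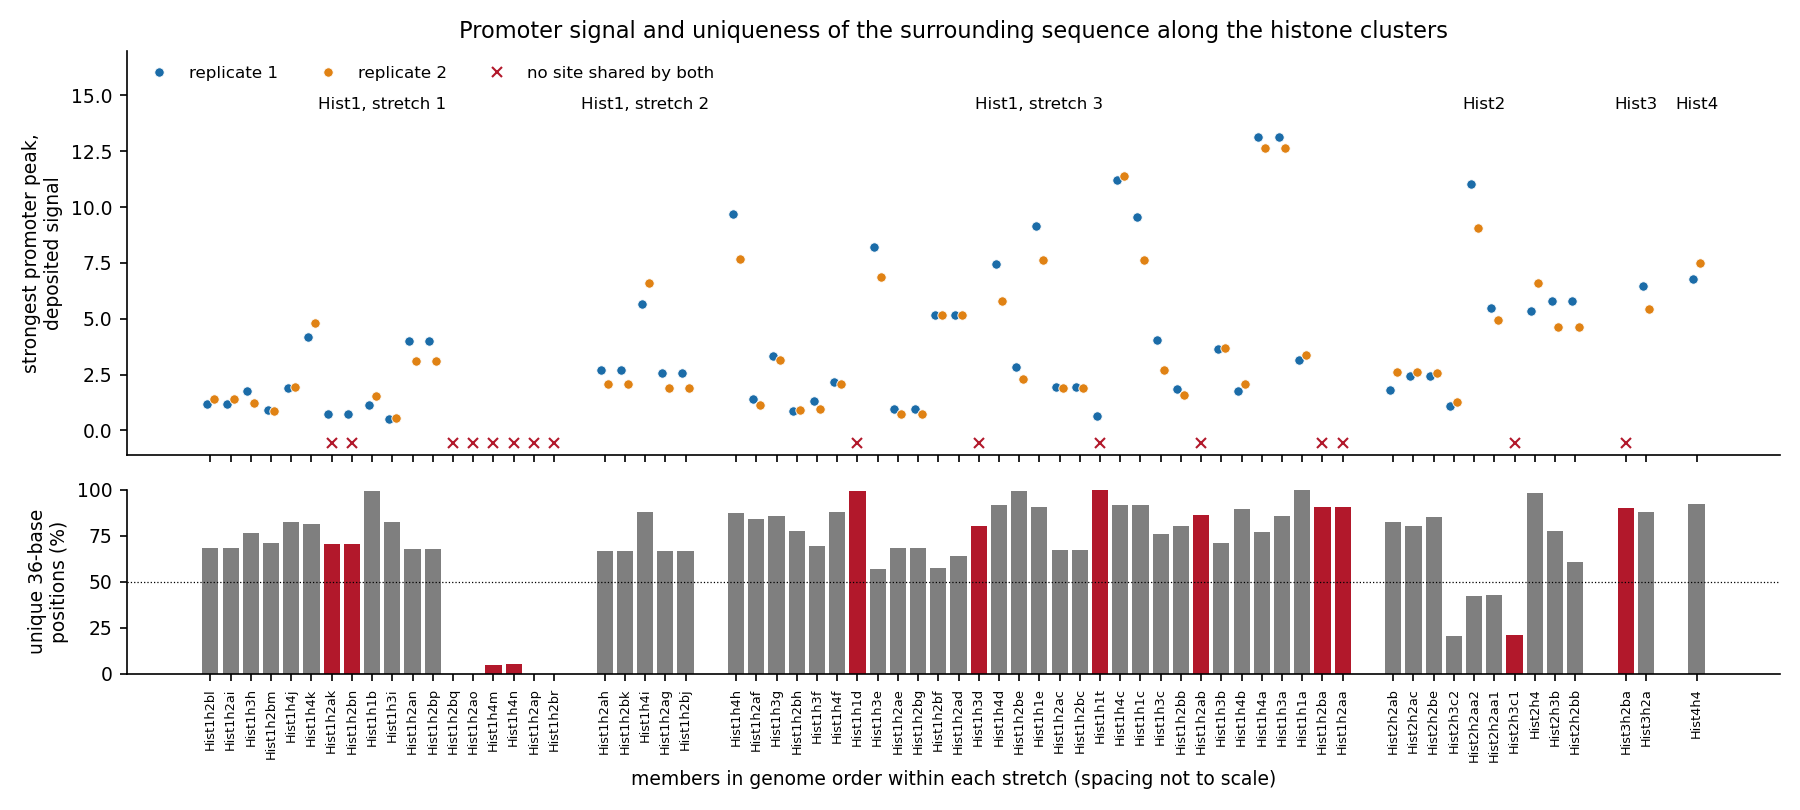
Upper panel, deposited signal of the strongest strict promoter peak of each histone gene in replicates 1 and 2, in genome order within the Hist1 stretches, Hist2, Hist3 and Hist4, with crosses for the 16 genes without a site shared by both (a single point above a cross is a peak in replicate 1 alone). Lower panel, percent of 36-base positions within 1000 bp of the start that are unique, in red for those 16 genes; bars at 0% mark the copies at the end of stretch 1.

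The stretches of chromosome 13 differed in their values. The Hist1 genes fell into 3 stretches more than 200 kb apart. The first held 18 genes, of which 10 were open, with a median of 1.47 in replicate 1 and 1.47 in replicate 2 and none above the median of all open genes. The second held 5 genes, all open, with 2.72 and 2.09. The third held 31 genes, of which 25 were open, with 3.35 and 3.16. All 6 Hist1 genes above the median of all open genes lay in the third stretch. In Hist2 9 of 10 genes were open, with 5.34 in replicate 1 and 4.62 in replicate 2. The low unique share of 6 genes in the first stretch moves with its count, and the 10 genes open there keep a low median; the part of uniqueness in the signal was not tested.

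Counted once each, the peaks near histone starts made 60 sites shared by the libraries, 41 of them near 1 histone gene and 19 near 2. They were narrower and weaker than promoter sites at large, with a median width of 180 bp, against 220 bp over 23649 promoter sites. Their median signal was 2.29 in replicate 1 and 2.09 in replicate 2, against 3.66 and 3.40 for all promoter sites. Of the 60, 33 covered the nearest start.

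Among the sites nearest to each start, those of H4 genes had the narrowest range of positions. The site nearest to the start was centred between -39 and -82 bp at 10 of the 11 open H4 genes, and at -231 bp at Hist1h4a. Hist1h4a has no HINFP core in its window, and no window was at hand for Hist2h4, whose site lay at -60 bp. H1 sites ranged from -75 to 134 bp over 4 genes, H2A sites from -226 to 313 bp over 13, H2B sites from -333 to 242 bp over 13, and H3 sites from -131 to 496 bp over 10. Within 100 bp upstream lay the centres of 6 of 13 H2A and 2 of 13 H2B sites.

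The divergent pairs show where these sites lie between genes. There were 13 pairs of neighbouring histone genes that point away from each other, 12 of them an H2A with an H2B gene, and their starts were 176 to 660 bp apart, with a median of 268. A shared site reached into the gap in 8 of the 13. Of the H2A and H2B pairs, 6 had 1 such site, and it was centred nearer to the H2A start in 5 and nearer to the H2B start in 1. At Hist1h2ag and Hist1h2bj, whose promoter is printed above, the site lay 77 bp from the H2A start and 193 bp from the H2B start, at 2.59 in replicate 1 and 1.90 in replicate 2. The exception was Hist1h2an and Hist1h2bp, 183 bp from the H2A and 60 bp from the H2B start, where the site was 320 bp wide. Of the 11 distinct octamer matches 1 lay in a shared site, that of Hist2h2bb.

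Footprints, short stretches inside a site where cuts are fewer than around them, were deposited at a false discovery rate of 0.01. The 60 sites held 184 footprints in replicate 1 and 175 in replicate 2, of which 129 overlapped between the libraries. A footprint of both libraries stood in 51 of the 60 sites, against 82.6% of all promoter sites. All 51 open histone genes had one, against 97.9% of all genes with a shared promoter site. Footprint counts move with signal, so the shares are also given by strength. Among sites with a mean signal under 2, 71.4% of 28 histone sites held one, against 55.2% of 7666 promoter sites, and among those of 5 or more, 16 of 17 did, against 99.8%.

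The site upstream of Hist1h4a had most footprints of both libraries, 6, followed by the start site of Hist2h4 and the site at +326 bp of Hist3h2a with 5 each, while the start sites of Hist1h2ag, Hist1h3g, Hist1h2ad, Hist1h4c, Hist1h1c and Hist1h1a tied at 4. A site at +691 bp of Hist1h4h had none, at 8.55 in replicate 1 and 6.99 in replicate 2. The other 8 sites without one had mean signals under 2. Of the 129 footprints 51 lay in the 100 bp upstream of the nearest start, 21 of them at H4 genes.

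At the H4 cores printed above, all 9 open genes had the core inside a shared site, and a footprint of both libraries overlapped it at 6, namely Hist4h4, Hist1h4k, Hist1h4i, Hist1h4f, Hist1h4d and Hist1h4c. Over all histone promoters 7 of 11 HINFP cores in shared sites were overlapped in both libraries, against 27.7% of 1497 over all promoters. At Hist1h4c the footprint spanned -53 to -24 bp from the GENCODE start and was 30 bp wide. For the E2F site the count was 3 of 4, against 57.8% over all promoters, and for the CCAAT box 16 of 58, against 37.6%. Neither the 4 H1 boxes nor the 1 octamer in shared sites had a footprint of both libraries over it. A footprint over a motif does not name the bound protein.

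**Figure D4:**
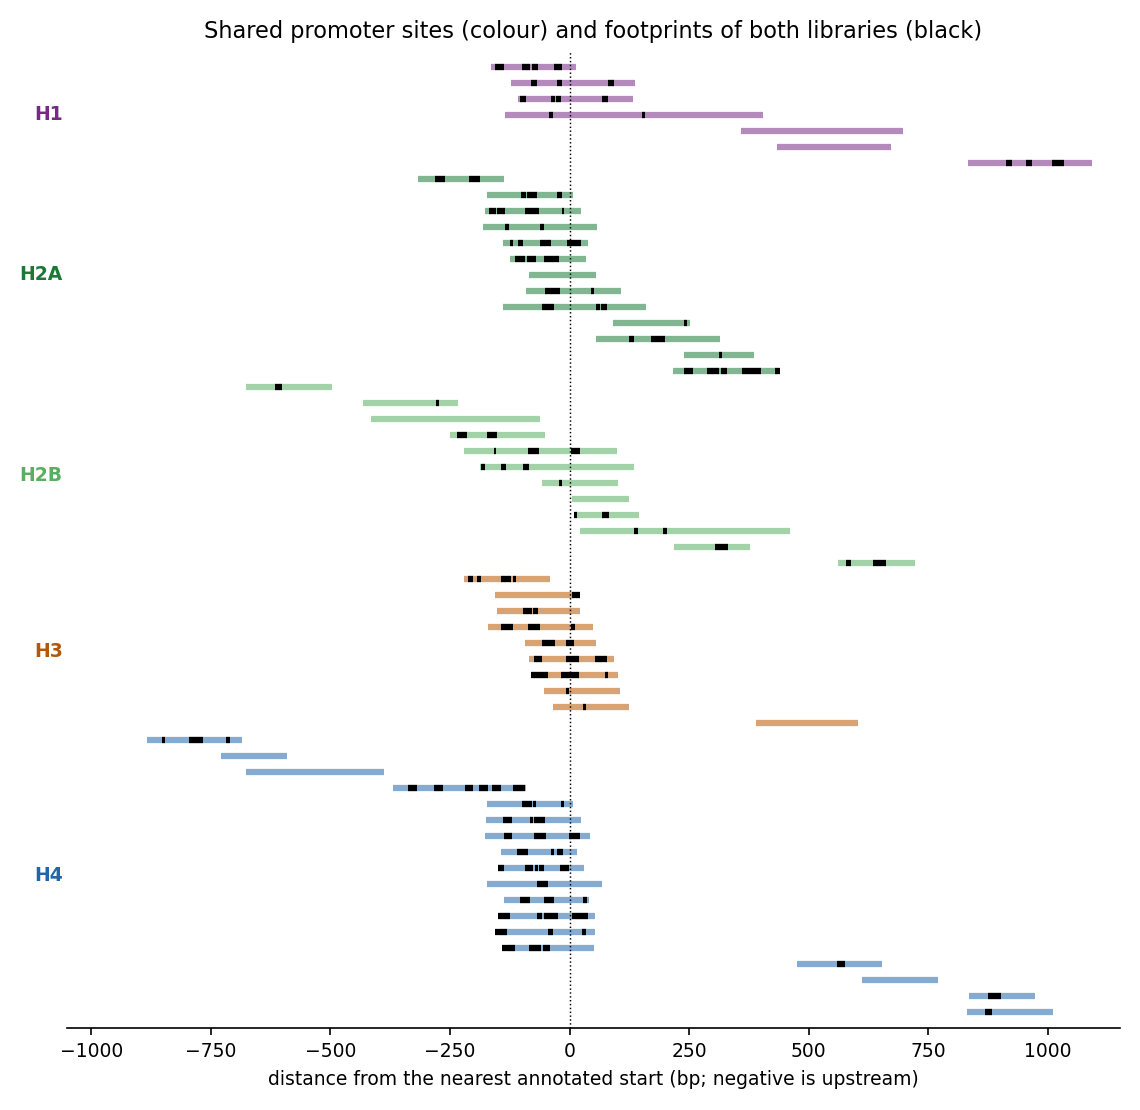
Each line is 1 of the 60 shared promoter sites, placed by distance in bp from the nearest annotated histone start and coloured by the class of that gene, with footprints of both libraries in black. At 10 H4 genes the site nearest the start is centred at -39 to -82 bp, but the full set of H4 sites runs from -783 to 920 bp, wider than that of H2A, H2B or H3.

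Further shared sites were sought in spans from 10 kb before the first to 10 kb after the last gene of each stretch. The spans covered 704 kb in all and held 31, some in gaps between histone genes and many in the added 10 kb flanks. Gaps and flanks are counted together below, and no separate rate was computed for either. Leaving out 4 at promoters of other protein-coding genes, there were 3.83 per 100 kb, against 1.64 per 100 kb of the genome for sites as far from coding starts. The genome rate was taken over whole chromosomes, not over regions as rich in genes, and 7 of the 27 sites lay at tRNA genes. Starts here are those of GENCODE, and 4 of the 27 sites lay within 1000 bp of a RefSeq start of Hist1h1d or Hist1h2be. Without these 4 sites, an alternative chosen after seeing the data, 23 were left, or 3.27 per 100 kb. A footprint of both libraries stood in 23 of those 27, 85.2%, against 91.1% of 44700 such sites. The strongest of the 31 was the promoter of H2afj, a replacement H2A gene beside Hist4h4, at 19.1 in replicate 1 and 16.6 in replicate 2. The promoter of Rnf187, a ubiquitin ligase gene beside Hist3, had 8.10 and 6.65.

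tRNA genes account for 7 of the 31, all of them in the flanks and none between histone genes. Of 9 tRNA genes in the spans 8 had a shared site within 250 bp, 88.9%, against 44.7% of the 403 tRNA genes of the RefSeq annotation. The strongest stood at n-TRtcg1, an arginine tRNA gene, with 4.11 in replicate 1 and 4.10 in replicate 2, and at n-TVcac8, a valine tRNA gene, with 3.36 and 3.23. The B box, an internal control element of tRNA genes, was found in 6 of the 7 sites, against 0.405% of shared sites away from coding starts. The 7 sites were picked for lying at tRNA genes, so this match follows from the choice and is not a separate result.

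The remaining 20 sites had a median of 1.69 in replicate 1 and 1.65 in replicate 2. The strongest, chr3:96278081-96278200, lay past the last Hist2 gene, inside the lincRNA gene Gm42743, with 11.6 in replicate 1 and 9.20 in replicate 2. Before the first gene of the second Hist1 stretch, chr13:22028761-22028960, inside the noncoding transcript Gm11292, had 9.76 and 7.82. After the last gene of that stretch, chr13:22050981-22051180, inside Gm48356, had 5.99 and 5.88. Before the first gene of the first stretch, chr13:21710041-21710200 had 5.25 in replicate 1 and 5.14 in replicate 2, more than any histone promoter of that stretch. Inside the long GENCODE record of Hist1h2be, chr13:23598081-23598240 had 3.35 and 2.42, and chr13:23585001-23585160, within 1000 bp of a RefSeq start of that gene, had 2.32 and 2.69.

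Genes whose products act on the clusters were described the same way. Of the list of histone transcription and 3′ processing genes 22 of 22 were open, against 63.7% of all protein-coding genes. Their median was 13.9 in replicate 1 and 12.2 in replicate 2, and 20 lay above the median of all open genes. Npat, the coactivator, had 28.1 in replicate 1 and 22.6 in replicate 2. Nfya, a subunit of the CCAAT-binding NF-Y, had 26.9 and 22.6, and Ccne1, the cyclin whose kinase activates NPAT, had 24.5 and 21.7. The cell cycle list was open at 15 of 15, against the same 63.7% of all genes, with medians of 13.8 and 11.7 in replicates 1 and 2. It was led by Ccna2, a cyclin of S phase, at 22.6 and 17.8. Mcm5, a subunit of the replicative helicase, had 20.9 in replicate 1 and 16.9 in replicate 2, and Cdc6, which loads that helicase, had 17.5 and 15.2.

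Many replacement histones are made outside S phase and supply nondividing cells, though this does not hold for every gene of the list used here. Of the 14 genes listed 12 were open, against 63.7% of all protein-coding genes, with a median of 14.0 in replicate 1 and 11.7 in replicate 2. The top genes were H2afv at 32.6 and 25.4, H2afz at 23.2 and 19.1, both of the H2A.Z family, and H2afj at 19.1 and 16.6. H1foo, the oocyte H1, and H2bfm had no peak in any list. These lists are set beside the clustered genes for their values, and no difference between lists was tested.

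**Figure D5:**
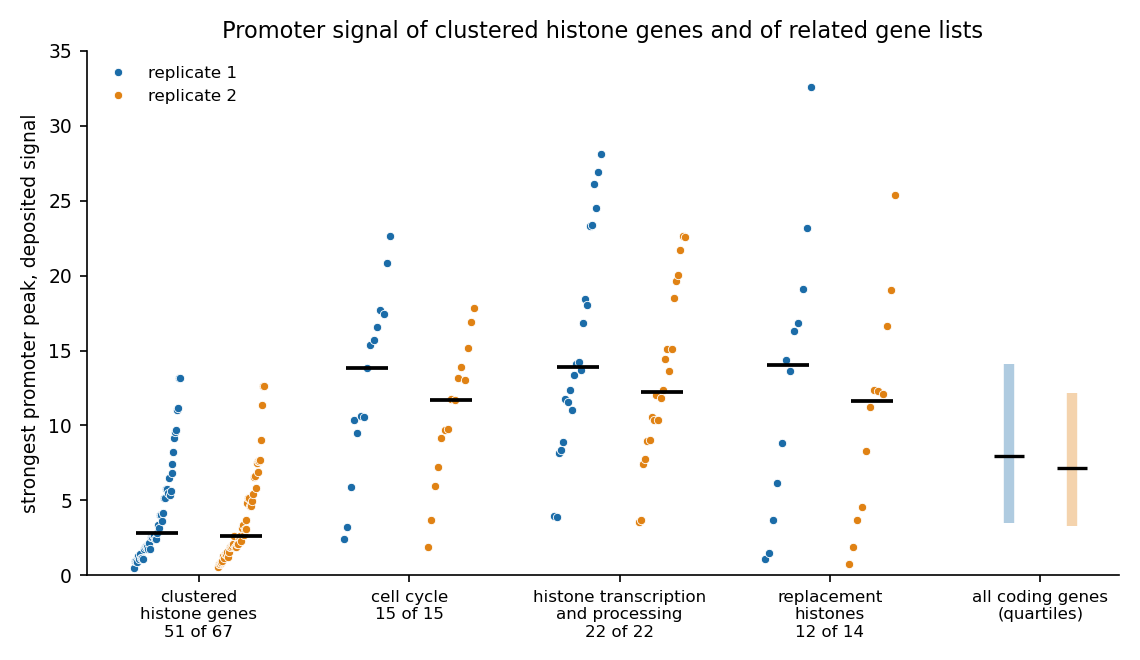
Deposited signal of the strongest strict promoter peak for open clustered histone genes and for open genes of 3 related lists, by replicate, with black bars at the medians, beside the median and quartiles of all open protein-coding genes. The clustered genes centre on 2.85 in replicate 1 and 2.62 in replicate 2, and the 3 lists centre between 11.7 and 14.0.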

How the data were processed

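DNase-seq was done on 2 libraries of 1 group, gastrocnemius of female B6CASTF1/J mice. Per the file headers and labels, each library has peak lists, footprints and per-base false discovery rates on mm10. For the aligner, callers, read length and depth, the entry is: not given in the sources used here. Peak signal, as deposited by the authors, has an unstated scale. The deposited footprints carry 1 q-value (false discovery rate) of 0.01, and the deposited per-base q-values are listed below 0.05.

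Peaks were joined to GENCODE starts. Sites shared by the libraries were merged peaks that overlapped by at least 1 bp. Uniqueness was counted on GRCm38.p6 with 36-base sequences over 21 chromosomes, and 12 motifs were sought as exact matches on both strands in RefSeq promoter windows. Functions were tested on simulated data with known answers. Python 3.11.15, numpy 2.4.6, pandas 2.3.3, numba 0.67.0 and matplotlib 3.10.9 were used. With 1 group no test was run: counts and medians stand beside those of all protein-coding genes, and the spread is that of the replicates, whose animals the labels do not separate. The members, lists and motifs were chosen with earlier results of these data known. Named are members without a shared site, the 3 highest and 2 lowest of each class, all outside Hist1, and the testis forms. Also named are the top and missing genes of the lists, the 10 strongest sites between or beside genes, and members with most footprints. Alternatives were the permissive list, stronger peaks, other windows, starts and overlaps, equal peak numbers, each replicate alone, 76-base sequences and shorter motif windows.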

Additional observations from a re-analysis of the deposited data

How the results depend on the processing

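Of 88 alternative values 80 stayed within 1.5 times the main count or within a spread. For the median signal that was the spread between the replicates, and for the median log2 ratio it was the spread between genes, 0.272. The median centred log2 ratio at open histone genes changed sign within that spread, from 0.0570 to -0.0171 with the permissive list. Among the 88, full counts such as 22 of 22 cannot rise. The count rule also passed 39 open histone genes with the stronger 50% of peaks, 58.2% against 56.6% of all genes. Staying within 1.5 times is therefore a loose measure. The median promoter signal of open histone genes, 2.56 over both replicates, moved to 3.67 with the stronger 50% of peaks, to 3.67 with a window of 2500 bp, to 3.67 with the sum over promoter peaks, to 2.91 with the same number of peaks in both libraries, and to 2.13 with genes without a peak counted as 0. Distinct promoter sites fell to 37 and sites between or beside the genes to 15 with the stronger 50% of peaks, which leaves fewer peaks by construction. The E2F site was found in 5 windows within 150 bp before the start, against 9 in the full window, and the 4 H2B matches were lost. With each replicate alone, 51 to 54 histone genes were open, against 64.8% to 65.4% of all genes, and the median was 2.62 to 2.72. The count of genes with under 50% unique positions was 10 with 36-base and with 76-base sequences. No paired analysis was possible because there is 1 group. Read depth is unknown, so weak sites near the threshold, such as Hist1h1t, limit what can be said of absence, as do near-identical copies and the CAST alleles of the F1 mice, whose placing on the C57BL/6J reference was not tested.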
